A study of Mus musculus with 6 samples.

Results

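Homeobox and T-box genes encode transcription factors that give cells their position along the body axis and the limb, and the set described here covers the HOX, MEIS, PBX, SIX-family, PAX, PITX, PRRX, MSX, DLX, IRX, MEOX and TBX families. Its members were chosen by gene symbol alone, without using any measured value. The mouse annotation holds 95 such symbols, of which 64 were among the 14548 genes of the deposited tables, and the other 31, including all 9 *Hoxd* genes, were not analysed here. RNA-seq was carried out on mouse C2C12 cells, a line of muscle precursors (myoblasts) that can fuse into fibres. There were 3 libraries of wild-type (WT) cells and 3 libraries of myostatin-knockout (MSTN-KO) cells. The MSTN-KO cells are 1 line, C11, in which exon 3 of *Mstn* was cut with CRISPR/Cas9, so differences between lines and the loss of MSTN cannot be told apart. The strain label reads C11 for all 6 libraries, and the genotype label set the groups. Myostatin itself is a secreted TGF-β family protein that restrains muscle growth.

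HOX genes lie in clusters, and the order of the genes in a cluster, counted as paralog groups from the 3′ end, follows their order of activity from head to tail and from the base to the tip of the limb. HOX proteins bind DNA together with the TALE homeodomain proteins PBX and MEIS. In muscle, SIX-family proteins with their EYA partners act upstream of the myogenic factors, PAX3 and PAX7 mark muscle progenitors, and MSX1, PRRX and TBX proteins pattern the limb and the head muscles.

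Expression is given as FPKM, the fragments on a gene per kilobase of its length and per 1000000 fragments of the library. In units of 1000000 fragments, the estimated depth was 16.9 to 18.8 for WT and 14.3 to 18.1 for MSTN-KO libraries, so 1 fragment on a gene of 1 kb was worth 0.0533 to 0.0699 FPKM. Groups were compared with limma on log2(FPKM + 1), a scale that understates the change of genes with low FPKM, over the 10837 genes that reached 1 FPKM in any library. Differentially expressed genes had a Benjamini-Hochberg adjusted p under 0.05 over all of these genes. The labels do not say whether the 3 libraries of a group came from separate cultures, so the p-values measure only the spread between these libraries, which may be technical.

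*Mstn* RNA was near 0 in every library, at 0.0211, 0 and 0.0399 FPKM across WT replicates 1, 2 and 3, against 0.0269, 0.0586 and 0.0390 FPKM in MSTN-KO replicates 1, 2 and 3 (two-sided exact permutation test, p = 0.3, where this design cannot go below 0.1), and could not check the labels. Myoblast identity was seen in all libraries, with *Myod1* at 125.9 to 167.5 FPKM in WT and 90.8 to 103.6 FPKM in MSTN-KO cells. Markers of muscle differentiation were lower in MSTN-KO cells for 7 of 7 measured genes, and their summed level was 247.0 to 818.9 FPKM in WT and 33.7 to 56.9 FPKM in MSTN-KO libraries. WT replicate 3 stood apart on these markers, with a median of -1.21 on the log2 scale relative to the WT mean against 0.64 and 0.57 in WT replicates 1 and 2. The part of this difference in differentiation in the results below was not tested, and fewer cells of a kind cannot be told apart from less RNA per cell. Of the listed markers, 4 of 4 endothelial, 2 of 4 epithelial, 2 of 4 macrophage and 1 of 4 neural genes were in the deposited tables. Summed by cell type, the endothelial and epithelial genes reached at most 0.167 and 0.492 FPKM in any library. The neural gene, *Sox2*, reached at most 0.334 FPKM. The macrophage genes summed to 0.726 to 2.45 FPKM, nearly all of it *Cd68*.

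Of the 64 factors, 41 reached 1 FPKM in at least 1 library and were tested. Of these, 8 were differentially expressed, 6 upregulated and 2 downregulated in MSTN-KO cells. The 8 made up 19.5% of the tested factors, near the 17.7% of all tested genes that passed (8.78% upregulated and 8.96% downregulated). When each library was scaled to a sum of 1000000, the split of all genes moved from 952 upregulated and 971 downregulated to 350 and 2367, and that of the factors to 0 and 9, as the median of all genes moved to -0.26. The upregulated factors were *Six5*, *Hoxb3*, *Pax7*, *Hoxb4*, *Hoxc11* and *Hoxc10*, and the downregulated ones included *Pbx4*. Few of these calls held for every set of libraries. *Pbx4* passed the test whichever library was left out, while leaving out WT replicate 2 or MSTN-KO replicate 1 left *Pbx4* as the single factor called. Without WT replicate 3, 4 factors passed (*Pbx4*, *Six5*, *Hoxc10* and *Hoxc11*).

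**Figure D1:**
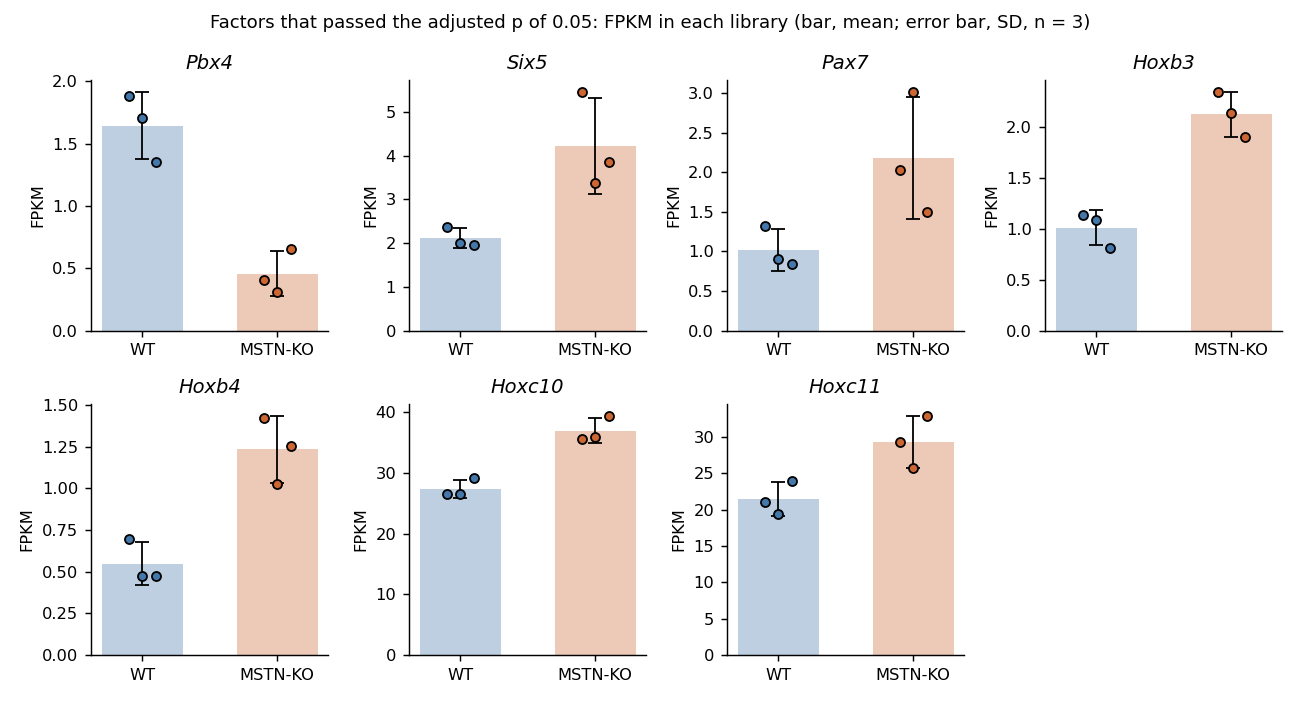
FPKM of 7 of the 8 differentially expressed factors, 1 panel per gene, for 3 WT and 3 MSTN-KO libraries (points), with the group mean (bar, from 0) and SD (error bar). In every panel the groups do not overlap, with the MSTN-KO libraries below WT for *Pbx4* and above WT for the other 6.

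Sequences around the RefSeq transcription start (250 bases before to 50 bases after, GRCm38.p6, given 5′ to 3′ on the gene's strand) were held for 35 of the 64 factors and for 4 of the 8 differentially expressed ones. They are shown for these 4 because their transcripts differed between the groups, with capitals marking matches on either strand to letters bound by factors of the same families or to the CCAAT box.
Pbx4 (chr8:69832374-69832673, plus strand): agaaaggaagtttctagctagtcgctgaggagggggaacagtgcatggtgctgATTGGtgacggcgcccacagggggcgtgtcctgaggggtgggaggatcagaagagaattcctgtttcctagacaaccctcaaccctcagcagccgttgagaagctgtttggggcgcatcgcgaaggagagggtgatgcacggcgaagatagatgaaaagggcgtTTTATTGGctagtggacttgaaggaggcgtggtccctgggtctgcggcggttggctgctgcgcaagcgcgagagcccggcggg
Hoxb4 (chr11:96318017-96318316, plus strand): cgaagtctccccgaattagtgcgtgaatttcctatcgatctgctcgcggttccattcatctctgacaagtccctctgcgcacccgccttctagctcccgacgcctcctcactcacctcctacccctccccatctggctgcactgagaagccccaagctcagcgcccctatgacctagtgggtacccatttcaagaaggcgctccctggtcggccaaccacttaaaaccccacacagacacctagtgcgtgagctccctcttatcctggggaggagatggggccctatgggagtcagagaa
Pax7 (chr4:139832919-139833218, minus strand): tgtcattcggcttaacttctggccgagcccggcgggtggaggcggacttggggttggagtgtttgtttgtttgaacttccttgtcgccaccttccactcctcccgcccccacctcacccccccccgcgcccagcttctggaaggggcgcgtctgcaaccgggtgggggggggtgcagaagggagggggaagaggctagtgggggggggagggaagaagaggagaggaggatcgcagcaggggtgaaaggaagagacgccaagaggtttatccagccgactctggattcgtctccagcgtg
Six5 (chr7:19094294-19094593, plus strand): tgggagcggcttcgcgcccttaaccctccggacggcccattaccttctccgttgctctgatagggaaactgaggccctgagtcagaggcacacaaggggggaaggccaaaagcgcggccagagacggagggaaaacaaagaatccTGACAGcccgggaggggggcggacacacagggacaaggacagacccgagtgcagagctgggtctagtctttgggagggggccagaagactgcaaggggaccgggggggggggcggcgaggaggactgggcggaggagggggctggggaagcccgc
The letters searched were TTTATNG (posterior HOX), TGATTNAT (HOX with PBX), TAATTA (homeodomain core), TGACAG (MEIS), TCAGGTT (SIX-family), AGGTGTG (T-box), CCAAT and CANNTG (E-box). *Pbx4* held 1 match to TTTATNG, present in 10.9% of all 32851 RefSeq promoters, and 2 matches to CCAAT, present in 37.4%, and its TTTATTG overlaps 1 of these as ATTGG. *Six5* held 1 TGACAG, present in 19.2% of promoters. *Hoxb4* held 1 CANNTG, present in 72.3% of promoters and not capitalised, and *Pax7* held none of these letters. The letters TGATTNAT (3.22% of promoters), TAATTA (5.29%), TCAGGTT (4.07%) and AGGTGTG (5.84%) occurred in none of the 4. All 4 were rich in CpG, with 14 to 19 CpG dinucleotides against a median of 7 over all promoters. A match is a description of the letters and not evidence of binding.

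Among the *Hox* genes in the deposited tables, those with high levels were mainly posterior genes of the *Hoxa* and *Hoxc* clusters. Of 39 annotated *Hox* genes 24 were in the tables, and 14 were tested. The other 15, which include all *Hoxd* genes, have no values here, so their levels are not known. *Hoxc10*, *Hoxc11*, *Hoxa10* and *Hoxa9* had the highest levels, and all 4 ranked among the 10 most abundant of the 64 factors. Summed over the cluster, *Hoxc* FPKM was 74.6 to 81.1 in WT and 88.1 to 102.1 in MSTN-KO libraries, *Hoxa* FPKM was 46.5 to 58.2 and 53.5 to 60.03, and *Hoxb* FPKM was 2.20 to 2.70 and 4.10 to 4.99. *Hoxb* transcripts were thus a small part of the summed FPKM of these *Hox* genes in both groups. Upregulation was called for 4 of the 14 tested *Hox* genes and downregulation for 0, and the 14 had a median log2 fold change of 0.23, beside -0.00 over all tested genes. Of all tested genes 8.78% were upregulated. The *Hox* median was 0.11 without MSTN-KO replicate 1, 0.34 without MSTN-KO replicate 2, 0.13 with the length and GC correction and -0.01 with scaling to a sum of 1000000, where the median of all genes was -0.26. At an unadjusted limma p under 0.05, 6 *Hox* genes were higher and 0 lower, beside 16.3% and 16.2% of all tested genes.

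**Figure D2:**
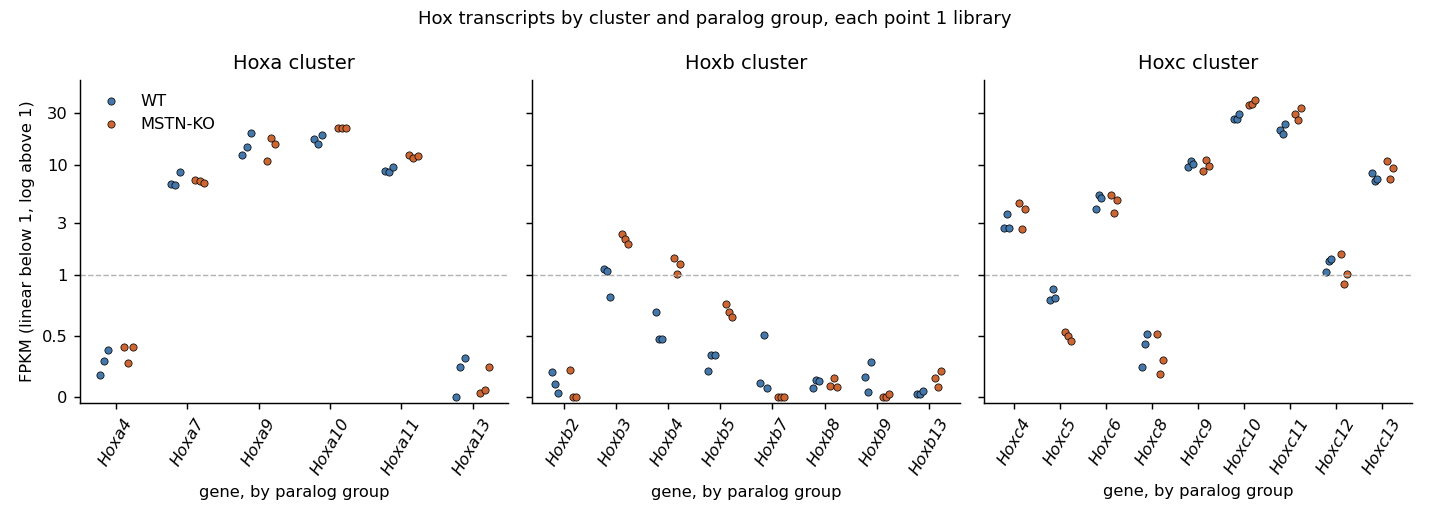
FPKM of 23 of the 24 *Hox* genes in each library (points, WT and MSTN-KO), by cluster and paralog group, on an axis that is linear below 1 and logarithmic above, with a dashed line at the filter of 1 FPKM. The highest points are *Hoxc10* and *Hoxc11*, while the *Hoxb* cluster stays below 3 FPKM.

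In paralog groups 10 and 11, which take part in patterning the limb, 2 of 4 tested genes were upregulated, beside 8.78% of all tested genes. *Hoxc10* was at 26.6, 26.5 and 29.1 FPKM across WT replicates 1, 2 and 3, against 35.6, 35.9 and 39.4 FPKM in MSTN-KO replicates 1, 2 and 3. The means were 27.4 ± 1.5 and 37.0 ± 2.08 FPKM (SD, n = 3 each), a 1.35-fold rise. *Hoxc10* had a log2 fold change of 0.42 (SE 0.12, limma adjusted p = 0.0309). It shares 166 exonic bases with *Hoxc5* on the same strand, which is 8.70% of its exons. *Hoxc11*, its neighbour on chromosome 15, was at 21.1, 19.3 and 23.9 FPKM in WT and at 29.3, 25.8 and 32.9 FPKM in MSTN-KO libraries. Its means were 21.4 ± 2.31 and 29.3 ± 3.55 FPKM (log2 fold change 0.43, SE 0.14, limma adjusted p = 0.0480). For both genes the lowest MSTN-KO library lay above the highest WT library. In GRCm38 *Hoxc11* (ENSMUSG00000001656) runs from 102954427 to 102957708 and *Hoxc10* (ENSMUSG00000022484) from 102966796 to 102971893. Both calls were lost on leaving out WT replicate 1 or 2 or MSTN-KO replicate 1 or 3. The limma adjusted p was then 0.0598 to 0.143 for *Hoxc10* and 0.0927 to 0.208 for *Hoxc11*. Over 10 processing alternatives the *Hoxc10* call held in 7 and the *Hoxc11* call in 2.

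The *Hoxa* genes of these paralog groups were higher too, without passing the test. *Hoxa10* was at 17.1, 15.6 and 18.7 FPKM in WT and at 21.8, 21.8 and 21.6 FPKM in MSTN-KO libraries (log2 fold change 0.33, SE 0.13, limma adjusted p = 0.0935). *Hoxa11* was at 8.89, 8.60 and 9.56 FPKM and at 12.5, 11.7 and 12.2 FPKM (log2 fold change 0.39, SE 0.13, limma adjusted p = 0.0591), and 35.0% of its exonic bases lie opposite an antisense transcript. In none of the 4 genes did the groups overlap. Groups not overlapping were found for 37.4% of all tested genes, with MSTN-KO above WT for 19.3%. The 4 log2 fold changes spanned 0.33 to 0.43. They stayed positive under every alternative fit, at 0.06 to 0.16 when each library was scaled to a sum of 1000000, where the median of all genes moved to -0.26.

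Paralog group 9 gave no such difference. *Hoxa9* was at 12.3, 14.6 and 19.5 FPKM in WT and 10.98, 17.8 and 15.5 FPKM in MSTN-KO libraries (log2 fold change -0.07, limma adjusted p = 0.836), and *Hoxc9* was at 8.77 to 11.1 FPKM in all 6 libraries. More distal in the cluster, *Hoxc12* (0.924 to 1.53 FPKM) and *Hoxc13* (7.21 to 10.9 FPKM) overlapped between the groups. Among the *Hox* genes nearer the 3′ end, *Hoxa7* (6.61 to 8.66 FPKM), *Hoxc4* (2.62 to 4.52) and *Hoxc6* (3.64 to 5.35) overlapped as well.

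Among the tested *Hox* genes, the largest log2 fold changes were in the anterior part of the *Hoxb* cluster on chromosome 11. *Hoxb3* was at 1.14, 1.08 and 0.815 FPKM across WT replicates 1, 2 and 3, against 2.34, 2.14 and 1.90 FPKM in MSTN-KO replicates. Its mean rose 2.10-fold, from 1.01 ± 0.174 to 2.13 ± 0.221 FPKM (log2 fold change 0.64, SE 0.16, limma adjusted p = 0.0174). An estimated 62 to 155 fragments per library stood behind these values. An antisense transcript lies opposite 52.9% of the *Hoxb3* exonic bases, and whether counting used the strand is not given in the sources used here, so reads of the 2 cannot be told apart. *Hoxb4*, the next gene of the cluster, was at 0.694, 0.473 and 0.475 FPKM in WT and at 1.42, 1.02 and 1.25 FPKM in MSTN-KO libraries. The log2 fold change of *Hoxb4* was 0.53 (SE 0.17, limma adjusted p = 0.0475), on an estimated 22 to 58 fragments per library. *Hoxb4* passed the filter only through the MSTN-KO libraries, in which it was high, and it also passed the test with no filter. With other processing, the *Hoxb4* call held in 4 of 9 alternatives. *Hoxb5*, the gene after that, stayed under 1 FPKM, at 0.208, 0.340 and 0.346 FPKM in WT and 0.764, 0.697 and 0.659 FPKM in MSTN-KO libraries. It was tested only with no filter, where its limma adjusted p was 0.0116. The 3 neighbours had in common that each MSTN-KO library was above each WT library, as was found for 19.3% of all tested genes. They were grouped after their values were seen. *Hoxb2*, on the other side of *Hoxb3*, overlapped between the groups. It was at 0.203, 0.104 and 0.0350 FPKM in WT and 0.218, 0 and 0 FPKM in MSTN-KO libraries. *Hoxb4* (ENSMUSG00000038692) runs from 96318267 to 96321638 and *Hoxb3* (ENSMUSG00000048763) from 96323326 to 96347930. The *Hoxb3* call was lost without WT replicate 2 or 3 or MSTN-KO replicate 1 (limma adjusted p 0.0583 to 0.0709), and the *Hoxb4* call without any library but MSTN-KO replicate 2 (0.0669 to 0.168).

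The TALE family gave the most stable change. *Pbx4* (ENSMUSG00000031860), a PBX protein that serves HOX proteins as a DNA-binding partner, lies on chromosome 8 from 69832491 to 69872292 in GRCm38. It was at 1.88, 1.70 and 1.35 FPKM across WT replicates 1, 2 and 3, against 0.406, 0.309 and 0.656 FPKM in MSTN-KO replicates 1, 2 and 3. The WT mean of 1.65 ± 0.272 FPKM was 3.60 times the MSTN-KO mean of 0.457 ± 0.179 FPKM. *Pbx4* fell by 0.86 on the log2 scale (SE 0.18, limma adjusted p = 0.00498), and it passed in all 10 processing alternatives and all 6 fits that left out a library. The level was low, with an estimated 12 to 71 fragments per library. *Pbx4* reached 1 FPKM in WT libraries alone, and the call also held with no filter.

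The other tested genes of the PBX and MEIS families did not pass, and *Pbx3* ranged from 3.33 to 5.15 FPKM. *Pbx2* was not in the deposited tables and was not analysed. *Meis2* was at 19.8, 21.4 and 22.2 FPKM in WT and at 24.3, 31.3 and 24.4 FPKM in MSTN-KO libraries. Its groups did not overlap, but its log2 fold change of 0.31 (SE 0.14) had a limma adjusted p of 0.134. *Meis1* was at 4.90 to 5.41 FPKM and *Meis3* at 6.86 to 9.56 FPKM across the 6 libraries.

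Of the 4 TALE genes *Pknox1*, *Pknox2*, *Tgif1* and *Tgif2*, 1 passed, beside 17.7% of all tested genes. *Tgif2*, a TALE repressor that binds SMAD proteins of the TGF-β pathway, was at 6.52, 6.19 and 6.95 FPKM in WT and at 2.65, 3.39 and 3.05 FPKM in MSTN-KO libraries. It fell by 0.91 on the log2 scale (SE 0.15, limma adjusted p = 0.00133) and passed the adjusted p in every alternative fit. *Pknox1*, a MEIS-related partner of PBX, was at 8.59 ± 0.544 and 10.1 ± 0.653 FPKM (log2 fold change 0.21, limma adjusted p = 0.316). Its groups did not overlap, with MSTN-KO above WT. *Tgif1*, at 52.7 to 63.7 FPKM, and *Pknox2*, at 1.46 to 2.38 FPKM, overlapped between the groups.

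Among the SIX-family genes, *Six4*, which acts upstream of the myogenic factors, was at 4.77, 5.53 and 6.36 FPKM in WT and 2.93, 5.09 and 3.01 FPKM in MSTN-KO libraries. MSTN-KO replicate 2 overlapped the WT range for *Six4* (log2 fold change -0.51, SE 0.19, limma adjusted p = 0.0809), and without that library the adjusted p was 0.0112.

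*Six5* (ENSMUSG00000040841), which lies in the myotonic dystrophy locus on chromosome 7 from 19094594 to 19098549, had the highest log2(FPKM + 1) fold change of the tested factors, while *Hoxb4*, *Pax7* and *Hoxb3* had higher ratios of mean FPKM. It was at 2.38, 2.004 and 1.95 FPKM in WT and at 5.46, 3.36 and 3.86 FPKM in MSTN-KO libraries. The mean rose 2.0-fold, from 2.11 ± 0.232 to 4.23 ± 1.10 FPKM (log2 fold change 0.73, SE 0.18, limma adjusted p = 0.0136). Leaving out MSTN-KO replicate 1, the highest library, gave 0.57 with a limma adjusted p of 0.0695, and leaving out WT replicate 2 gave 0.71 with 0.0536. Of the 3 tested EYA coactivators of SIX-family proteins 0 passed in limma, beside 17.7% of all tested genes. Only *Eya4* had an unadjusted limma p under 0.05, where 16.2% of all tested genes were lower. *Eya4* was at 4.25 ± 0.607 and 2.99 ± 0.407 FPKM (log2 fold change -0.40, limma adjusted p = 0.109). *Eya2* was not tested, at 0.248, 0.149 and 0.0965 FPKM in WT and listed at 0 in all 3 MSTN-KO libraries.

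*Pax7* (ENSMUSG00000028736, chromosome 4 from 139737062 to 139833528), the marker of muscle stem cells, was low but higher in MSTN-KO cells. It was at 1.32, 0.901 and 0.836 FPKM across WT replicates 1, 2 and 3, against 2.03, 3.02 and 1.5 FPKM in MSTN-KO replicates 1, 2 and 3. The mean rose 2.15-fold, from 1.02 ± 0.260 to 2.19 ± 0.770 FPKM (log2 fold change 0.64, SE 0.20, limma adjusted p = 0.0415). Every MSTN-KO library was above every WT library, yet the spread in MSTN-KO cells was wide. Each fit that left out a library other than MSTN-KO replicate 3 gave a limma adjusted p above 0.05, from 0.0585 to 0.130. The *Pax7* call held in 5 of 10 processing alternatives. *Pax3*, its paralog, was near 0, at no more than 0.0292 FPKM in any library. *Pax8* was at 0.816, 1.06 and 0.926 FPKM in WT and 0.310, 0.440 and 0.667 FPKM in MSTN-KO libraries. Its groups did not overlap (log2 fold change -0.40, limma adjusted p = 0.130). With no filter and with scaling to a sum of 1000000 its limma adjusted p was 0.0492 and 0.0403.

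The limb mesenchyme factors of the PRRX, PITX, MSX and DLX families held some of the highest levels. In limma 0 of their 9 tested genes passed, beside 17.7% of all tested genes. At an unadjusted limma p under 0.05 there was 1, beside 16.3% higher and 16.2% lower among all tested genes. *Prrx2* was the most abundant of the 64 factors, at 133.0, 107.4 and 80.4 FPKM in WT and at 103.5, 64.6 and 94.3 FPKM in MSTN-KO libraries. Its libraries varied more within a group than between the groups (log2 fold change -0.29, SE 0.20, limma adjusted p = 0.337). *Prrx1*, on chromosome 1, where the median log2 fold change of all tested genes was -0.25, was at 18.2, 15.5 and 14.4 FPKM in WT and 14.2, 18.8 and 12.6 FPKM in MSTN-KO libraries (log2 fold change -0.09, limma adjusted p = 0.742). *Dlx3* was at 35.2, 30.1 and 34.9 FPKM in WT and 24.2, 31.3 and 32.3 FPKM in MSTN-KO libraries (log2 fold change -0.19, limma adjusted p = 0.371).

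Other genes of these families were lower in level. *Msx1*, which holds myoblasts undifferentiated, was at 7.75 to 10.3 FPKM in WT and 6.13 to 7.21 FPKM in MSTN-KO libraries (log2 fold change -0.31, limma adjusted p = 0.172). *Msx2* was at 1.59 to 3.06 FPKM and 2.55 to 3.64 FPKM (log2 fold change 0.32, limma adjusted p = 0.281), on chromosome 13, where the median of all tested genes was -0.34. *Pitx3* ranged from 3.00 to 4.66 FPKM, *Dlx2* from 2.97 to 4.83 FPKM and *Dlx1* from 1.40 to 1.70 FPKM.

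The 7 tested IRX and TBX genes had log2 fold changes below 0, as did 50.1% of all tested genes. In limma 0 of the 7 passed, beside 17.7% of all tested genes. At an unadjusted limma p under 0.05, 2 were lower, *Irx2* and *Tbx1*, beside 16.2% of all tested genes. *Irx3* was at 9.70, 11.5 and 10.3 FPKM in WT and 8.29, 7.97 and 9.08 FPKM in MSTN-KO libraries (log2 fold change -0.28, SE 0.14, limma adjusted p = 0.177). *Irx2* was at 1.82 to 2.41 FPKM in WT and 1.31 to 1.57 FPKM in MSTN-KO libraries (log2 fold change -0.39, limma adjusted p = 0.118), and it too lies on chromosome 13. *Irx5* ranged from 4.51 to 6.26 FPKM in all libraries. *Tbx1*, a factor of head and pharyngeal muscle, was at 6.65, 6.48 and 6.43 FPKM in WT and 4.74, 3.23 and 5.17 FPKM in MSTN-KO libraries. Its groups did not overlap, and it came closest to a call among the T-box genes (log2 fold change -0.50, SE 0.17, limma adjusted p = 0.0549). *Tbx18* was at 3.39 to 3.57 FPKM in WT and 2.49 to 2.99 FPKM in MSTN-KO libraries (log2 fold change -0.23, limma adjusted p = 0.301), and *Tbx15* (5.19 to 6.44 FPKM) and *Tbx3* (1.52 to 2.21 FPKM) overlapped. The log2 fold changes of all 3 tested IRX genes were below 0 in every alternative fit, while for the TBX genes the 4 of 4 below 0 became 2 of 4 with quantile normalization and 3 of 4 without MSTN-KO replicate 3.

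**Figure D3:**
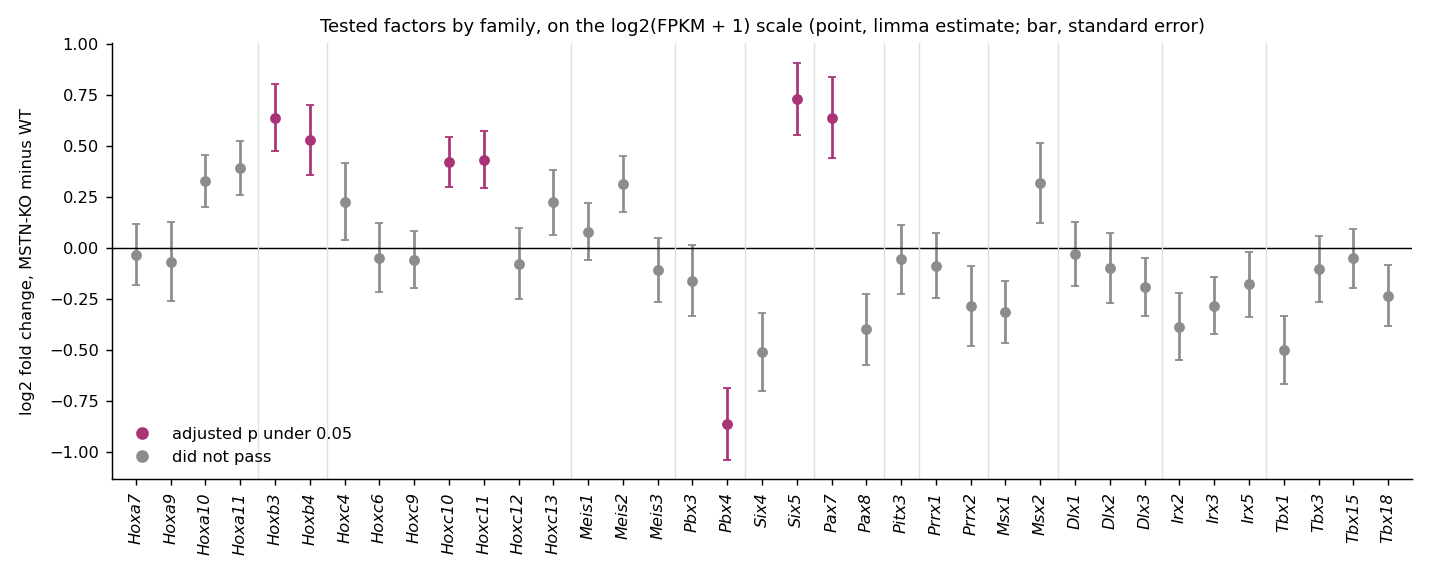
Log2 fold changes of 37 of the 41 tested factors, MSTN-KO minus WT on the log2(FPKM + 1) scale, by family (point, limma estimate, bar, standard error), with the differentially expressed factors in colour. *Six5* lies highest at 0.73 and *Pbx4* lowest at -0.86, and the IRX, TBX, DLX and PBX points all lie below 0, though some TBX and DLX points did not under quantile normalization, nor 1 of 3 DLX points without WT replicate 2 or MSTN-KO replicate 2, nor 1 of 4 TBX points without MSTN-KO replicate 3.

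Over the 41 tested factors the groups did not overlap for 19 (46.3%), with MSTN-KO above WT for 11 and below WT for 8, beside 37.4% of all tested genes, 19.3% above and 18.1% below. Without the *Hox* genes, 27 factors were tested, of which 2 were upregulated and 2 downregulated (14.8%), with a median log2 fold change of -0.12. *Hoxb4*, *Pbx4* and *Pax8* reached 1 FPKM in the libraries of 1 group only, and these counts are descriptions.

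The other 23 factors stayed under 1 FPKM in every library, the highest value being 0.884 FPKM for *Hoxc5*. *Hoxc5* was at 0.794, 0.884 and 0.807 FPKM in WT and 0.534, 0.499 and 0.461 FPKM in MSTN-KO libraries. It was the one *Hoxc* gene with all MSTN-KO libraries below WT. With no filter *Hoxc5* was called lower (log2 fold change -0.29, limma adjusted p = 0.0281). In the posterior *Hoxb* cluster, *Hoxb7* was at 0.111, 0.504 and 0.0716 FPKM in WT and listed at 0 in all MSTN-KO libraries, and *Hoxb9* was at 0.161, 0.0366 and 0.282 FPKM and at 0, 0 and 0.0240 FPKM. *Hoxb7* had at most an estimated 15 fragments in a library and *Hoxb9* at most 13. *Pax6*, *Six2*, *Tbx19* and *Tbx20* were also listed at 0 in all MSTN-KO libraries, and none of these 4 exceeded 0.0904 FPKM in WT. The others were *Hoxa4*, *Hoxa13*, *Hoxb2*, *Hoxb5*, *Hoxb8*, *Hoxb13*, *Hoxc8*, *Dlx4*, *Dlx5*, *Meox1*, *Pax3*, *Pax5*, *Pax9*, *Tbx2*, *Tbx4* and *Tbx6*. The hindlimb factor *Tbx4* was at 0.0401 to 0.171 FPKM.

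**Figure D4:**
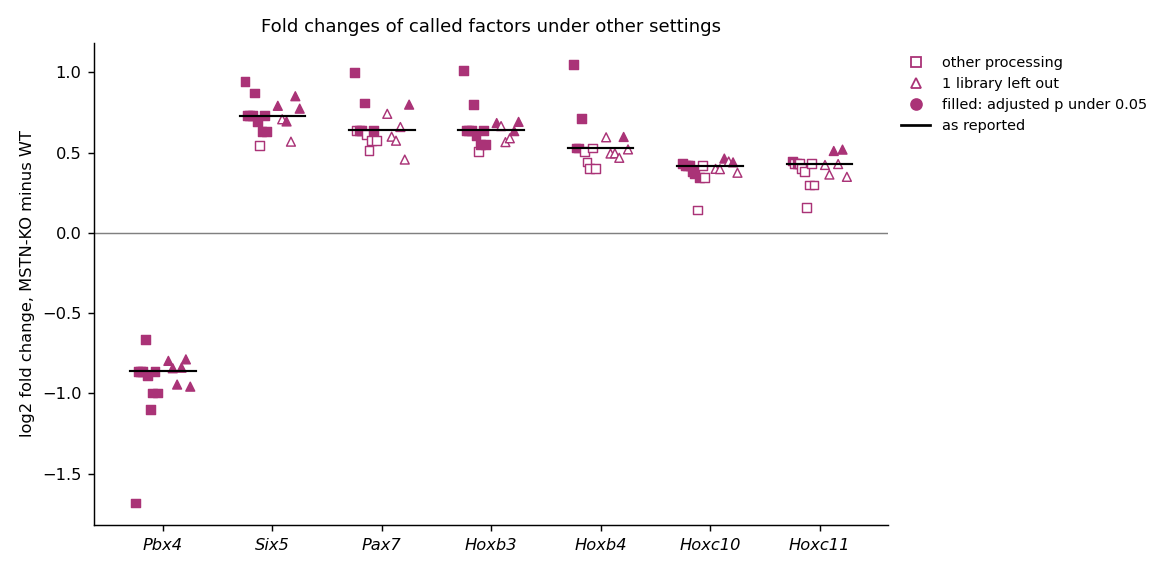
Log2 fold change (MSTN-KO minus WT) of 7 differentially expressed factors under other processing (squares) and with 1 library left out (triangles), filled where the adjusted p was under 0.05, with a black line at the reported value. No point crosses 0, all *Pbx4* points are filled, and most *Hoxc11* points are open.

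Corepressors and chromatin regulators that act with homeodomain proteins were compared in the same fit. *Tle2*, a Groucho corepressor recruited by homeodomain proteins including SIX-family and PAX factors, was at 5.60, 4.23 and 4.87 FPKM in WT replicates and at 11.3, 13.4 and 11.5 FPKM in MSTN-KO replicates. *Tle2* rose by 1.15 on the log2 scale (SE 0.15, limma adjusted p = 0.000207). *Tle6*, a divergent family member, was at 3.81, 3.61 and 2.42 FPKM and at 8.10, 6.95 and 7.41 FPKM (log2 fold change 1.00, SE 0.17, limma adjusted p = 0.00148). Both passed the adjusted p in every alternative fit, and 2 of the 4 tested TLE genes were upregulated, beside 8.78% of all tested genes. *Tle1* and *Tle3*, which were more abundant, had log2 fold changes of 0.08 and 0.06 and overlapping groups.

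Of 25 Polycomb genes, which keep silent *Hox* genes repressed, 3 were upregulated and 0 downregulated (12%), beside 17.7% of all tested genes. The shares upregulated and downregulated among all tested genes were 8.78% and 8.96%. At an unadjusted limma p under 0.05, 4 Polycomb genes were higher and 1 lower, beside 16.3% and 16.2% of all tested genes. *Phf19*, a cofactor of Polycomb repressive complexes, was at 4.88 ± 0.311 and 8.37 ± 1.46 FPKM (log2 fold change 0.66, SE 0.16, limma adjusted p = 0.0115), and *Ring1*, a Polycomb ubiquitin ligase, at 18.7 ± 1.28 and 27.8 ± 3.43 FPKM (log2 fold change 0.55, SE 0.14, limma adjusted p = 0.0151). Both calls were lost without WT replicate 2 (limma adjusted p 0.0594 and 0.0657) and with scaling to a sum of 1000000, and that of *Ring1* also without MSTN-KO replicate 1 or 3 (0.0584 and 0.0502). Of the 12 tested trithorax and related genes, which keep active *Hox* genes on, 0 passed in limma, 0 had an unadjusted p under 0.05, and their log2 fold changes ran from -0.15 to 0.27.

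**Figure D5:**
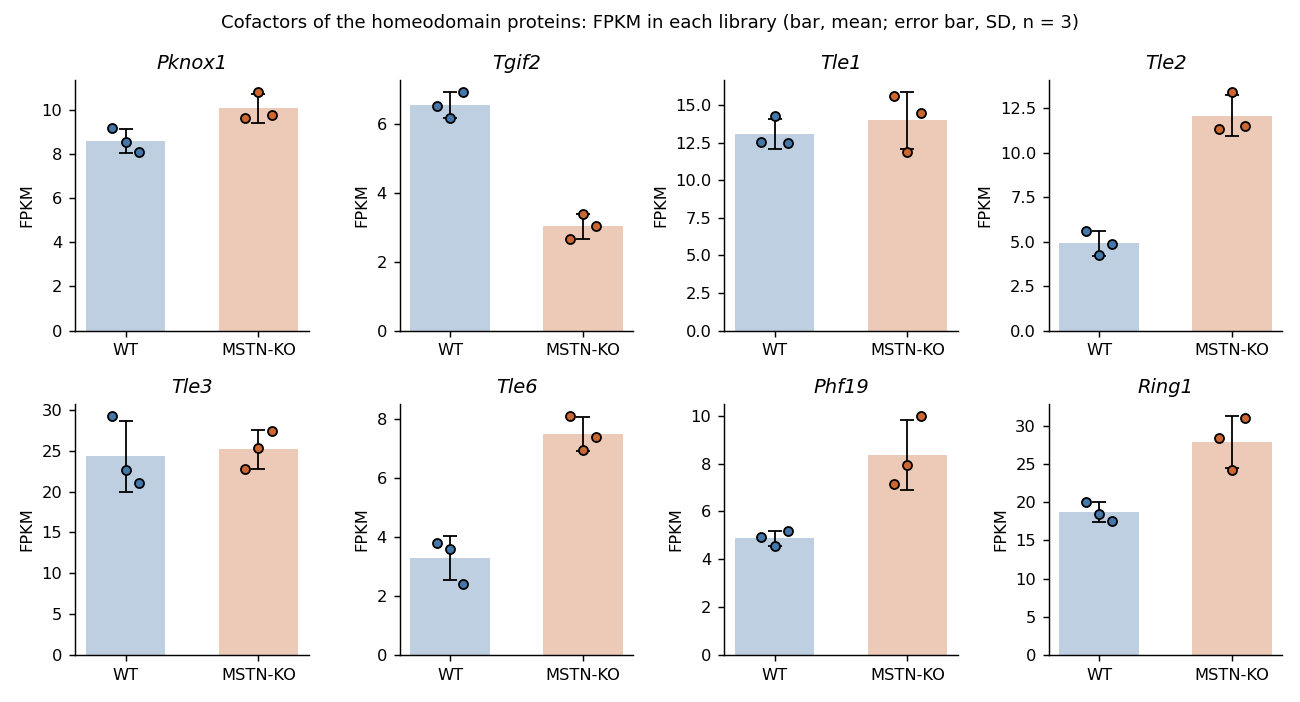
FPKM of 8 cofactors of homeodomain proteins in 3 WT and 3 MSTN-KO libraries (points), with the group mean (bar, from 0) and SD (error bar). *Tle2*, *Tle6*, *Phf19* and *Ring1* are higher in every MSTN-KO library and *Tgif2* is lower in every one, while *Tle1* and *Tle3* overlap. *Pknox1* is also higher in every MSTN-KO library, though it did not pass the adjusted p.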

How the data were processed

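RNA-seq values of C2C12 cells were analysed, from 3 libraries per genotype (WT and MSTN-KO). The authors sequenced on an Illumina HiSeq system and deposited FPKM values per gene, 1 library per file. The submitters' processing notes name Bowtie 0.12.2 and the build mm8. The counter, its use of strand and any gene filter are not given in the sources used here. FPKM is relative to the fragments of each library, so a few abundant genes lower all others, and the FPKM of a library summed to 723705 to 764524 in WT and 856314 to 999579 in MSTN-KO cells. Depth was estimated from the smallest FPKM step per base of exon, and depth limits the precision of genes near 1 FPKM.

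Identifiers were matched to GENCODE M21 (GRCm38), with 14445 of 14548 having a symbol, length and GC content. Coordinates come from that annotation by gene identifier, and promoters from RefSeq (GRCm38.p6), with none converted. Factors were the symbols of the 12 families. Genes that reached 1 FPKM in any library were compared on log2(FPKM + 1) with limma 3.58.1 (R 4.3.3), with group as the only term and eBayes with a trend. Values per library are given for factors with a Benjamini-Hochberg adjusted p under 0.05 and for the 10 with the highest mean, and for others where groups did not overlap or a neighbour or paralog was called, which was chosen after their values were seen. Cofactors are named where called or partners of a called factor. Members and lists (TALE, SIX-family, TLE, Polycomb, trithorax, limb and somite factors, cell type markers) were chosen with earlier results of these data known. Results of 5 genes are not reported here, though counts include them. Summaries used Python 3.11.15, pandas 2.3.3, numpy 2.4.6, scipy 1.17.1 and matplotlib 3.10.9. The fit was tested on simulated data. Alternatives were leaving the trend out, a pseudocount of 0.1, a filter on the mean, no filter, scaling to a sum of 1000000 or by the percentile 75, quantile normalization, a length and GC correction (mgcv 1.9.3), the replicate block, leaving out each library, and the study's criteria of an unadjusted p under 0.05 with a log2 fold change past 1.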

Additional observations from a re-analysis of the deposited data

How the results depend on the processing

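All 8 differentially expressed factors kept their direction under every alternative fit, and *Pbx4* also its side of the threshold. The 6 upregulated factors became 3 with scaling by the percentile 75, 0 with scaling to a sum of 1000000, and 0 to 5 when 1 library was left out. The 2 downregulated factors became 1 with no trend, 9 with scaling to a sum of 1000000, 4 with the length and GC correction, and 1 to 3 when 1 library was left out. Under the study's criteria, applied to this fit and not to the iDEP analysis of the paper, 0 factors were upregulated and 0 downregulated. None of the factors changed by more than 1 on the log2(FPKM + 1) scale, which understates the change of genes with low FPKM. Of all genes, 131 were upregulated and 249 downregulated under these criteria. Of all genes 350 were upregulated and 2367 downregulated with scaling to a sum of 1000000, and 423 to 1184 and 606 to 1251 when 1 library was left out. Under the replicate block 3 factors were upregulated, and with the block and the length and GC correction 3 were upregulated and 5 downregulated. Whether same-numbered libraries were handled together is not given in the sources used here. Their deviations from their group means correlated at -0.0153, -0.128 and -0.142 over genes, which cannot decide it. *Hoxa9*, not called, ran from -0.21 to 0.12 over the fits without 1 library, at 0.10 without WT replicate 3 and 0.12 without MSTN-KO replicate 1, and *Prrx1*, not called, reached 0.0852 with the length and GC correction (0.0852 with the block too) and ran from -0.24 to 0.03, with 0.000914 without WT replicate 1 and 0.0316 without MSTN-KO replicate 3. A pseudocount of 0.1 moved *Pbx4* to -1.68, *Hoxb4* to 1.05, *Hoxb3* to 1.01 and *Pax7* to 1.002, all past 1 in size. *Six5*, *Hoxc10* and *Hoxc11* stayed under 1 with that pseudocount. *Tbx1* passed in 5 alternatives, and *Six4* without MSTN-KO replicate 2 and with scaling to a sum of 1000000. The cause of these changes was not tested. Low depth limits the factors near 1 FPKM.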

Other observations

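Among 30 other limb and somite positional factors, 14 were in the tables and 7 were tested. Of these 7, 3 passed (42.9%), 2 upregulated and 1 downregulated. Of all tested genes 17.7% passed, 8.78% upregulated and 8.96% downregulated. *Twist2*, a repressor of myogenic factors in mesenchyme, was at 39.8, 38.1 and 39.8 FPKM in WT and 53.0, 48.5 and 60.9 FPKM in MSTN-KO libraries (log2 fold change 0.45, SE 0.13, limma adjusted p = 0.0274). *Foxc1*, a forkhead factor of somites, was at 2.41, 2.36 and 2.32 FPKM and at 4.06, 3.28 and 3.73 FPKM (log2 fold change 0.48, SE 0.15, limma adjusted p = 0.0466). *Gli3*, a hedgehog pathway factor that patterns the digits, was at 5.77, 4.97 and 4.70 FPKM and at 3.20, 3.40 and 2.31 FPKM. It fell by 0.64 on the log2 scale (SE 0.16, limma adjusted p = 0.0181). Both *Gli3* and *Foxc1* lie on chromosome 13, where the median log2 fold change of all tested genes was -0.34. The other 4 tested, *Shox2*, *Lhx2*, *En1* and *Zeb2*, did not pass. The calls of *Twist2* and *Foxc1* were lost without any library but MSTN-KO replicate 2 and with scaling to a sum of 1000000. That of *Gli3* was lost without WT replicate 1 or 2 or MSTN-KO replicate 3, and with no filter. *Foxc1* passed in 4 of 10 processing alternatives, and *Twist2* and *Gli3* in 9 of 10 each.

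Markers of other mesenchymal cells moved in both directions. *Col3a1* rose by 0.68 on the log2 scale and *Dcn* fell by 0.73 among the fibroblast markers. *Sox9* of cartilage fell by 0.67, and *Fabp4* of fat rose by 0.83 from at most 0.324 FPKM in WT. *Fabp4* passed the filter only through the MSTN-KO libraries, in which it was high. Of the 2 tested fat markers 1 passed, beside 17.7% of all tested genes. Of the smooth muscle markers, *Acta2* rose by 0.46 while *Tagln* fell by 1.33 and *Cnn1* by 1.04, and *Myh11* was at no more than 0.0211 FPKM. *Des* fell by 0.96 and *Myod1* by 0.58, while *Myf5* was at 9.49 to 14.7 FPKM in all libraries (limma adjusted p = 0.783).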
